A study of Mus musculus with 6 samples.

Results

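The genes described here are the mouse antibody light chain genes that the deposited gene table lists under the variable and constant immunoglobulin gene classes (IG_V_gene, IG_C_gene), pseudogenes apart: 100 kappa variable genes (Igkv, chromosome 6), 3 lambda variable genes (Iglv, chromosome 16) and 4 lambda constant genes (Iglc, chromosome 16). They were chosen by symbol and gene class alone, and make up 107 of the 52636 genes in the table. Their values were taken from total RNA sequencing of mouse optic nerve, depleted of ribosomal RNA, in 3 libraries of a group named mCherry and 3 of a group named hND6. The hND6 group is labelled with mutant human ND6T14484C, a form of a mitochondrial complex I subunit gene, and the mCherry group with the red fluorescent protein of that name. Both groups carry the same treatment text, an injection into the eye of a lentivirus holding mutant human ND6, so only the treatment label tells them apart. The promoter of the virus, the strain, age and sex of the mice, and whether a library is 1 animal could not be learned from the labels. The p-values hold for the scatter among these 6 libraries, part of which may be technical.

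An antibody is built from heavy and light chains, and a light chain is either kappa or lambda. A developing B cell cuts and joins its DNA so that a single variable (V) segment, out of the many in the locus, meets a short joining (J) segment, and the transcript is spliced to a constant (C) region. Descendants of a cell keep its choice, and plasma cells, the antibody-secreting end stage, transcribe the chosen gene at very high rates. The V genes seen in bulk RNA thus describe which B lineage cells contributed, weighted by their output. In these libraries fewer such cells and less RNA per cell cannot be told apart.

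Igkv6-32, the light chain gene with most reads in the data, is shown first, because it led every hND6 library. Its V exon lies on the minus strand at chr6:70074024-70074321 (build GRCm38, sequence from GENCODE M21) and is 298 bases long. The capitals mark the codon of the conserved cysteine that stands just before the third hypervariable loop, found as a tyrosine codon, a tyrosine or phenylalanine codon and a cysteine codon in a row; the pattern was present in 99 of the 103 V genes. The line after it is the V exon of Igkv6-17, the member nearest to it by whole transcript (chr6:70371696-70371993, plus strand), with the 42 bases that differ in capitals, an identity of 85.9%.

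Igkv6-32: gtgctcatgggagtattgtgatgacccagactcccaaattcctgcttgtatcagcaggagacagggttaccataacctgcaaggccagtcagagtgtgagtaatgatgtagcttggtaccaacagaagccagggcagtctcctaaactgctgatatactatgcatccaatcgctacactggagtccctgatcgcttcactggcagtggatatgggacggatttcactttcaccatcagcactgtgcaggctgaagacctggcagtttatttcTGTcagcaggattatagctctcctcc
Igkv6-17: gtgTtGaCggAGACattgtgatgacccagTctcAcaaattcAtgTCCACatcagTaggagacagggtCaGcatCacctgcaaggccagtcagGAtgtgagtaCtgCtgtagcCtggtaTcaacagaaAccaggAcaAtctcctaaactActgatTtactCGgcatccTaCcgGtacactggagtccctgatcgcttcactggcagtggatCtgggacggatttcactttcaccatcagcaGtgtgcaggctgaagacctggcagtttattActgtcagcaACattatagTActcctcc

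No stretch of 50 bases of the Igkv6-32 transcript occurred in the transcripts of any other GENCODE M21 gene. It was 1 of 23 such genes among the 103 V genes, while 19 shared more than 50% of their stretches with another gene, so that reads of those 19 are less surely placed. The 19 include Igkv1-110, Igkv4-55, Igkv4-57, Igkv5-45 and Igkv6-20, whose reads by library are described below. Igkv6-17 itself had no read in any library.

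The last 60 bases of the V exon are given for 7 other genes, with the cysteine codon again in capitals. Igkv14-111, Igkv3-4, Igkv10-96 and Iglv1 are shown as the others with at least 10 reads in every hND6 library, and Igkv15-103, Igkv8-28 and Igkv1-122 as genes held mostly or wholly by a single hND6 library. Positions, on the same build, are chr6:68256810-68256869 (plus strand) for Igkv14-111, chr6:70672318-70672377 (plus) for Igkv3-4, chr6:68631963-68632022 (minus) for Igkv10-96, chr16:19085017-19085076 (minus) for Iglv1, chr6:68437866-68437925 (plus) for Igkv15-103, chr6:70143593-70143652 (minus) for Igkv8-28 and chr6:68017429-68017488 (plus) for Igkv1-122.

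Igkv14-111: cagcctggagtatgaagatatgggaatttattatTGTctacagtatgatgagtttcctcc
Igkv3-4: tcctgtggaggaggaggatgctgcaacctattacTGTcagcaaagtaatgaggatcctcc
Igkv10-96: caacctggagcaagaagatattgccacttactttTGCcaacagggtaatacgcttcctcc
Iglv1: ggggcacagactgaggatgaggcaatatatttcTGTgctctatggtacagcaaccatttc
Igkv15-103: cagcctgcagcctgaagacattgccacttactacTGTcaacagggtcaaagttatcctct
Igkv8-28: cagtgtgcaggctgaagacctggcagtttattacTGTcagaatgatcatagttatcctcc
Igkv1-122: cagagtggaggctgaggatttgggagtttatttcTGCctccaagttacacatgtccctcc

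Light chain transcripts were abundant in all 3 hND6 libraries and near absent in 2 of the 3 mCherry libraries. The 103 V genes together had 3431, 1520 and 4494 reads in hND6 1, 2 and 3, against 93, 2 and 5 in mCherry 1, 2 and 3. Scaled to library size (RPM, reads divided by the assigned total) these were 101, 75.0 and 204 against 3.05, 0.0575 and 0.194. Every hND6 library lay above every mCherry library, and mCherry 1 held most of the light chain reads of its group. Of the 107 members 57 had a read in some library, 55 of them in hND6 and 12 in mCherry. The other 50 had none.

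The libraries held from 20253600 (hND6 2) to 34758900 (mCherry 2) assigned reads, to the nearest 100. The labelled tissue was checked on 10 glial genes, all of which entered the test; Mbp, a myelin protein gene, ran from 1818 to 3009 FPKM (fragments scaled for exon length and library size). Library mCherry 3 stood apart in a list of 10 forebrain and retinal neuron genes, at a summed 489 FPKM against 55.7 to 175 in the other libraries, and hND6 2 held the photoreceptor arrestin gene Sag at 68.3 FPKM against at most 2.01 elsewhere. Their part in the results was not tested. The highest and lowest light chain totals of hND6 fell to hND6 3 and hND6 2, and those of mCherry to mCherry 1 and mCherry 2.

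**Figure D1:**
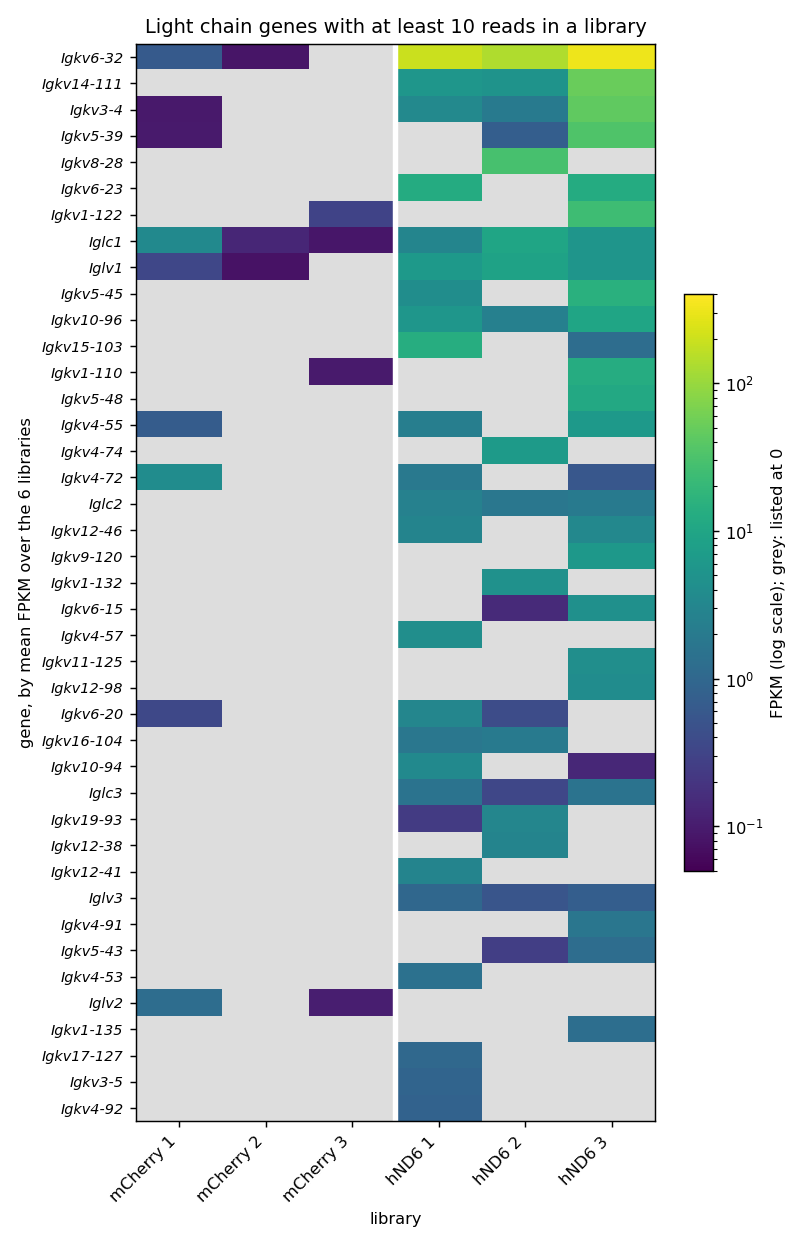
FPKM on a log colour scale of the light chain genes with at least 10 reads in some library (rows, by mean FPKM) in the 3 mCherry and 3 hND6 libraries (columns); grey cells are listed at 0. Igkv6-32 leads each hND6 column, most other genes are coloured in 1 or 2 hND6 libraries, and the mCherry columns are mostly grey.

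Igkv6-32 (chromosome 6, 70074024 to 70074603, minus strand) stood at 192, 138 and 314 FPKM in hND6 1, 2 and 3, and at 0.630, 0.0824 and 0 FPKM in mCherry 1, 2 and 3. The groups did not overlap, and the gene was the top light chain gene of every hND6 library. In reads these were 2400, 1001 and 2455 against 7, 1 and 0, a ratio of 872 per library size (exact 95% interval 442 to 2021, counting error only; 4638 without mCherry 1, which leaves 1 mCherry read). The gene rose by 8.20 ± 0.40 (SE) on the scale of log2(FPKM + 0.5), with a limma adjusted p of 0.00746. The log2 fold change was between 7.89 and 8.56 with any 1 library left out, and 7.97 without mCherry 3. The adjusted p was 0.0907 without mCherry 2 and at most 0.0498 without any other single library. It was 0.21 with limma's voom on reads recovered from the values and 0.126 with the replicate number as a block.

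Iglv1, the most used lambda V gene of the mouse (chromosome 16, 19085017 to 19085500), was the other member past the threshold. It stood at 6.35, 8.92 and 5.39 FPKM in the hND6 libraries and at 0.337, 0.0772 and 0 FPKM in the mCherry libraries, without overlap. It rose by 3.54 ± 0.28 (SE; limma adjusted p = 0.0226). Library hND6 2, the lowest of its group for Igkv6-32, was the highest for Iglv1. The call was lost when any library other than mCherry 3 was left out, with adjusted p from 0.0813 without mCherry 1 to 0.206 without mCherry 2, and the fold change stayed between 3.35 and 3.75. It was also lost with no filter (adjusted p = 0.0661), a pseudocount of 0.1 (0.0837), the TPM scale (0.0593), voom (0.199) and the replicate block (0.241). Both called genes averaged under 0.5 FPKM in mCherry (0.238 for Igkv6-32 and 0.138 for Iglv1) and entered the test through hND6.

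Genes entered the test when their 6 values averaged 0.5 FPKM or more, whatever the group. Of the 107 members 30 did so, and 28 of these averaged under 0.5 FPKM in mCherry, so that they entered through hND6 and had to differ. Nothing is read from their number, nor from their median log2 fold change of 1.63, against -0.01 over all tested genes. The 2 calls compare with 0.0433% of 16157 tested genes called higher by the same rule (7 genes; 116 without mCherry 3, beside 15 called lower). There were 0 members called without mCherry 2, 1 without mCherry 1 or hND6 1 and 3 without mCherry 3. The other 28 tested members had adjusted p from 0.0586 to 0.978. An unadjusted p under 0.05 was reached by 10 members, beside 9.11% of all tested genes in the same direction. Among all 107 members, 8 (7.48%) had their lowest hND6 value above their highest mCherry value, against 4.52% of all genes in the table. These were 8 of the 57 members with any read, beside 8.71% of all genes with any read. Of the 30 tested members 7 were among them, beside 12.6% of all tested genes. The reverse order held for 0 members. At the threshold the members just inside were Igkv10-94 (mean 0.612 FPKM), Iglc3 (0.573) and Igkv19-93 (0.551), and those just outside Igkv12-38 (0.486), Igkv12-41 (0.477) and Iglv3 (0.377).

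A further 3 kappa V genes had reads in every hND6 library and did not overlap between the groups, but did not pass the test. Igkv14-111 stood at 5.56, 5.08 and 51.4 FPKM in hND6 1, 2 and 3 and had no read in mCherry, at least 203-fold higher over the group against a floor of 3 reads. Its hND6 3 value was far above the others: without that library the bound was 59.7-fold. The limma adjusted p was 0.155 with hND6 3 and 0.0395 without it. Igkv3-4, one of the V genes closest to the J segments, stood at 3.49, 1.97 and 44.2 FPKM against a single read in mCherry 1, a read ratio of 473 (interval 84.4 to 18730, counting error only; adjusted p = 0.207). Its hND6 3 library held 340 of 397 hND6 reads, and without it the ratio was 95.5 (16.5 to 3837) and the log2 fold change 2.57 in place of 3.85. Igkv10-96 stood at 5.69, 2.54 and 9.78 FPKM, with mCherry at 0 reads and a bound of 64.7-fold (40.0-fold without mCherry 2, the deepest library; adjusted p = 0.143). All 3 were highest in hND6 3 and lowest in hND6 2, as was Igkv6-32.

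Many V genes were found in some hND6 libraries and not in others. Of the 30 tested members 8 had reads in all 3 hND6 libraries, 12 in 2 of them and 10 in only 1. The last 10 ran from 3.91 to 29.1 FPKM in their library, 6 of them in hND6 3 (Igkv1-122, Igkv1-110, Igkv5-48, Igkv9-120, Igkv11-125 and Igkv12-98), 3 in hND6 2 (Igkv8-28, Igkv4-74 and Igkv1-132) and 1 in hND6 1 (Igkv4-57). Igkv8-28 had 213 reads (29.1 FPKM) in hND6 2 and none in any other library. Igkv1-122 had 201 reads (24.6 FPKM) in hND6 3, none in hND6 1 and 2, and 3 in mCherry 3. Igkv5-48, at 88 reads, was found only in hND6 3. All 3 were listed at 0 in the other hND6 libraries, and none passed the test (limma adjusted p = 0.597, 0.645 and 0.601).

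Genes found in 2 hND6 libraries were often unequal. Igkv15-103 had 174 reads in hND6 1 and 10 in hND6 3, and Igkv5-39 had 251 reads in hND6 3 and 5 in hND6 2 beside 1 in mCherry 1. Igkv6-23 was nearly even in FPKM, with 157 reads in hND6 1 and 101 in hND6 3, or 12.4 and 12.8 FPKM; it had none in hND6 2 or mCherry (adjusted p = 0.317, and 0.016 without hND6 2). Igkv5-45 had 54 and 122 reads in hND6 1 and 3, and Igkv12-46 had 37 and 27. Igkv4-55 had 30 and 50 there and 8 in mCherry 1. Igkv16-104 had 23 and 15 reads in hND6 1 and 2, Igkv6-20 had 40 and 3 there and 4 in mCherry 1, and Igkv6-15 had 1 and 34 in hND6 2 and 3. The pair hND6 1 and hND6 3 thus shared several V genes that hND6 2 lacked, and hND6 2 was also the shallowest of the 6 libraries.

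At a minimum of 10 reads, 21 V genes were detected in hND6 1, 11 in hND6 2 and 21 in hND6 3, against 2 in mCherry 1 and none in mCherry 2 and 3. Over the hND6 group 37 were detected, 26 in a single library, 6 in 2 and 5 in all 3, namely Igkv6-32, Igkv14-111, Igkv3-4, Igkv10-96 and Iglv1. hND6 1 and hND6 3 shared 10 detected genes (47.6% of each list). hND6 1 and hND6 2 shared 6 (28.6% and 54.5%), and hND6 2 and hND6 3 shared 5 (45.5% and 23.8%). A minimum set by depth, 0.5 RPM, gave 17, 11 and 18 genes. The difference in number between hND6 2 and the others was present at this minimum too.

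The make-up of each library was dominated by Igkv6-32, which held 70.0% of light chain V reads in hND6 1 (exact 95% interval 68.4 to 71.5), 65.9% in hND6 2 (63.4 to 68.2) and 54.6% in hND6 3 (53.2 to 56.1). These intervals cover counting error only, and that of hND6 3 does not reach the others. The effective number of V genes (inverse Simpson index, the number of equally used genes that would give the same evenness) was 2.01, 2.18 and 3.12. With Igkv6-32 set aside, it was 12.0, 4.72 and 9.36, and the top gene differed in every library: Igkv15-103 with 16.9% of the remaining reads in hND6 1, Igkv8-28 with 41.0% in hND6 2 and Igkv14-111 with 19.8% in hND6 3. The top heavy chain V genes of the same libraries, Ighv1-64, Ighv3-6 and Ighv1-9, held 22.3%, 22.0% and 23.9% of 1750, 854 and 2311 reads, and 16, 11 and 18 heavy V genes reached 10 reads.

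**Figure D2:**
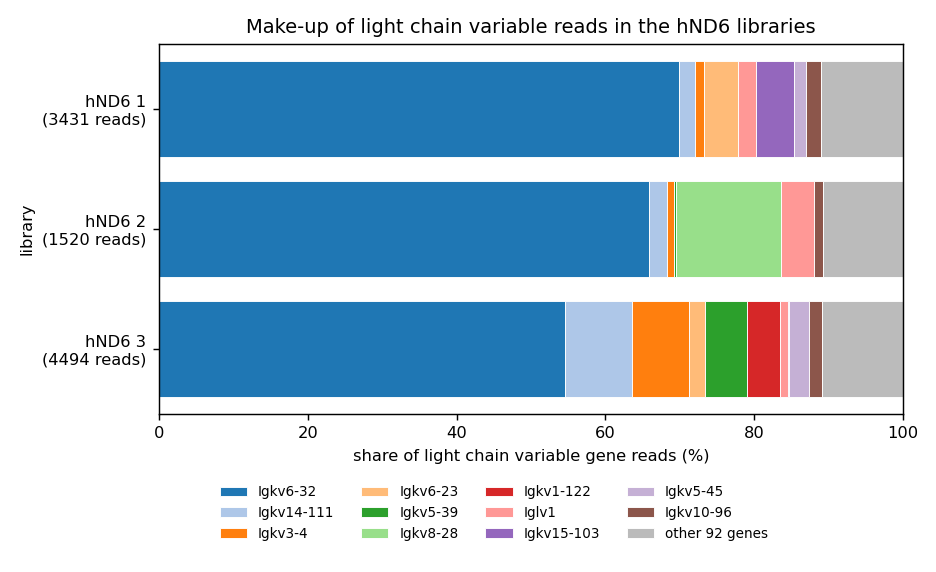
Share of light chain V reads (percent, horizontal axis) held by the V genes with most reads in the hND6 group and by all others together, in each hND6 library. The Igkv6-32 segment covers 70.0%, 65.9% and 54.6% of the bars, and the second widest named segment is a different gene in each.

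The control group gave little to compare. mCherry 1 was led by Igkv4-72, with 48 of its 93 light chain V reads (51.6%, interval 41.0 to 62.1), followed by Iglv2 with 14 and Igkv4-55 with 8. Igkv4-72 stood at 3.93 FPKM in mCherry 1, 0 in mCherry 2 and 3, and 1.89, 0 and 0.582 FPKM in hND6 1, 2 and 3; the groups overlapped and its difference had no stable sign over the alternatives (log2 fold change 0.07, limma adjusted p = 0.978). Iglv2 and Igkv1-99, with 15 and 6 reads, were the 2 members with reads in mCherry and none in hND6. In mCherry 2 the light chain V reads were 1 each of Igkv6-32 and Iglv1, and in mCherry 3 they were 3 of Igkv1-122 and 1 each of Igkv1-110 and Iglv2. A count of 0 there allows up to 3 reads.

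By family, the first number in a kappa gene's name, the reads followed the single genes. The 9 genes of family 6, which include Igkv6-32, held 78.0%, 69.5% and 58.3% of kappa V reads in hND6 1, 2 and 3. Family 4, the largest with 26 genes, held 4.08%, 3.87% and 1.53%. Family 8 held 14.7% in hND6 2, all 213 reads of it Igkv8-28, and 10 and 5 reads in hND6 1 and 3. Family 1 held 7.47% in hND6 3 and no read in hND6 1. Families 7 and 20 have 1 gene each and had no read.

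The kappa locus is long, with V genes from 18.4 kb (Igkv3-1) to 3166 kb (Igkv2-137) from Igkj1, the first J segment, and V genes on both strands. Those on the strand of the J segments join by deletion of the DNA between, the others by inversion. Igkv6-32 lies 648 kb from Igkj1, on the opposite strand. Of 38 genes on the J strand 13 (34.2%) reached 10 reads in a hND6 library, and of 62 on the opposite strand 22 (35.5%) did. Detected genes were spread over the whole locus: 5 of 19 genes within 500 kb, 9 of 21 from 500 to 1000 kb, 4 of 17 from 1000 to 1500 kb, 4 of 14 from 1500 to 2000 kb, 7 of 12 from 2000 to 2500 kb and 6 of 17 beyond. Without Igkv6-32, hND6 3 held 634 reads from 2000 to 2500 kb, 501 from 500 to 1000 kb and 479 within 500 kb. In hND6 1 the highest count, 379, also lay from 2000 to 2500 kb, followed by 260 within 500 kb. Library hND6 2 held most of its reads, 240, from 500 to 1000 kb, where Igkv8-28 alone had 213.

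**Figure D3:**
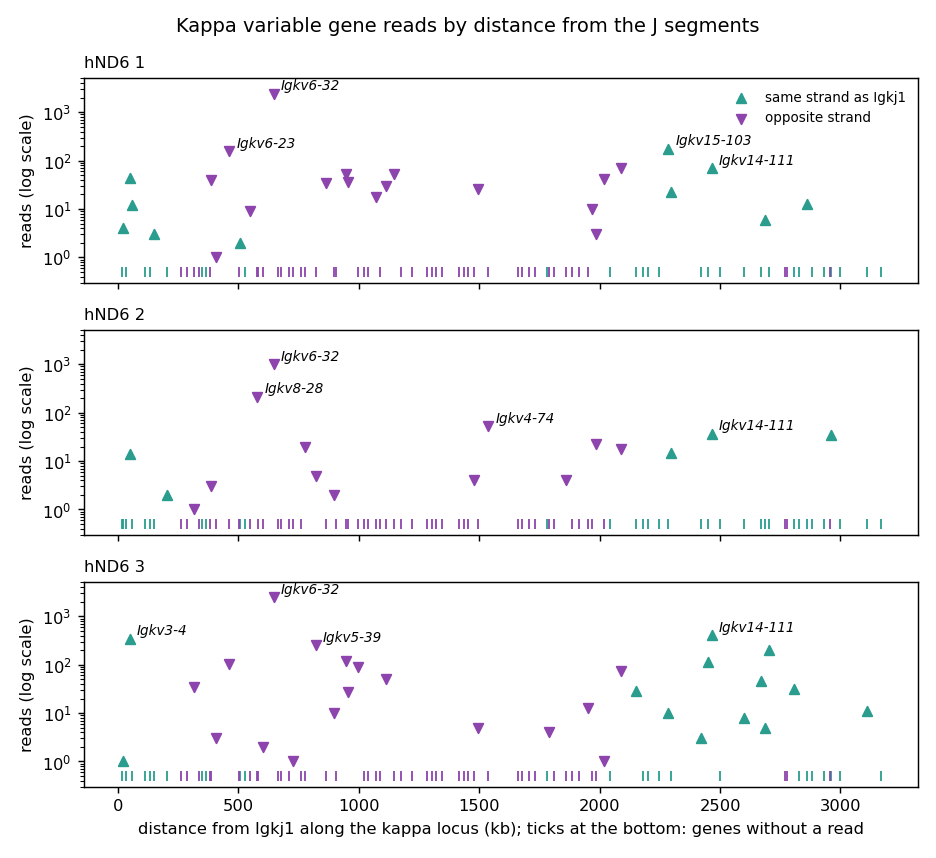
Reads (log scale, vertical axis) of each kappa V gene against its distance from Igkj1 in kb, 1 panel per hND6 library; upward triangles are genes on the strand of Igkj1, downward triangles genes on the opposite strand, and ticks at the bottom genes without a read. Igkv6-32, 648 kb away, is the highest point of all 3 panels, and the next highest points lie at different distances in each.

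Lambda genes gave a small part of the V reads. The kappa share was 97.1% in hND6 1 (exact 95% interval 96.5 to 97.7), 95.2% in hND6 2 (94.0 to 96.2) and 98.9% in hND6 3 (98.5 to 99.2), with 98, 73 and 51 lambda V reads. In mCherry 1 it was 80.6% of 93 reads (71.1 to 88.1), and the other mCherry libraries had too few reads for a share. Iglv3 had 13, 4 and 6 reads in the hND6 libraries and none in mCherry, too few to enter the test. Iglv2 had none in hND6, against 14, 0 and 1 in mCherry. Iglv1 and Iglv2 were 90.8% identical and shared 22.2% of the 50-base stretches of Iglv1.

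All lambda constant genes except Iglc4 had reads in every hND6 library. Iglc2 (chromosome 16, 19198401 to 19200351) had 54, 21 and 25 reads in hND6 1, 2 and 3 against 0 in every mCherry library. It was at least 39.7-fold higher (24.5-fold without mCherry 2), with a limma adjusted p of 0.0586 (0.0437 without mCherry 3). Iglc3 had 24, 3 and 15 reads against none, at least 16.7-fold higher (10.3-fold without mCherry 2; adjusted p = 0.199). Iglc1, which like Iglc3 lies downstream of Iglv1, had 47, 88 and 52 reads in hND6 and 49, 2 and 1 in mCherry; in FPKM, mCherry 1 at 3.56 lay above hND6 1 at 3.02, so the groups overlapped (adjusted p = 0.271). Iglc4 had 2 reads, both in hND6 3. Iglv1, Iglc1 and Iglc3 lie inside the antisense gene 2010309G21Rik, which had 2, 0 and 2 reads in mCherry and 13, 2 and 12 in hND6; the kit keeps strand, but no label gives the strand setting of the counting.

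**Figure D4:**
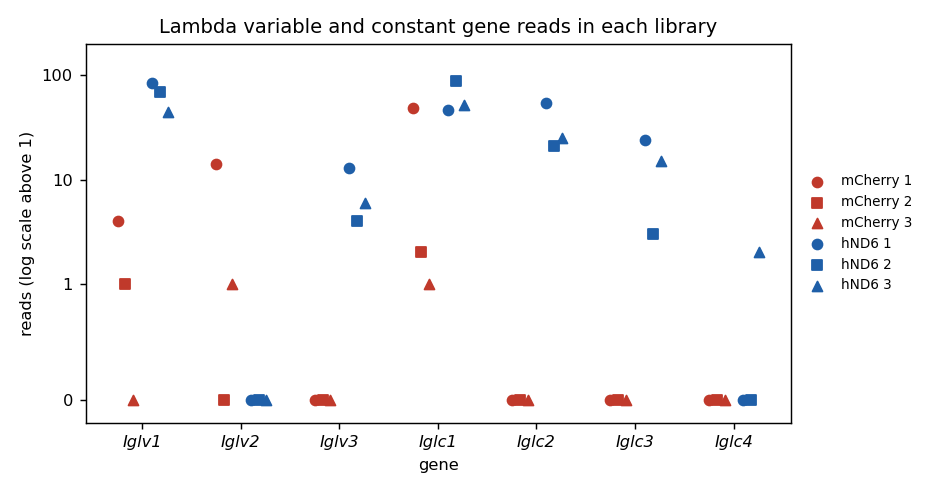
Reads (vertical axis, log scale above 1) of the 3 lambda V and 4 lambda constant genes in each mCherry (red) and hND6 (blue) library. Iglv1 separates the groups (45 to 85 reads against 0 to 4), Iglc1 does not, with 49 reads in mCherry 1, and Iglv2 had reads only in mCherry 1 and mCherry 3.

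The kappa constant region could not be read directly. Igkc and all 5 Igkj genes were listed at 0 in every library, and all lie inside Gm30211, a noncoding gene on their strand (chromosome 6, 70719074 to 70740554). Gm30211 itself had 104, 36 and 108 reads in hND6 1, 2 and 3 and 1, 10 and 3 in mCherry 1, 2 and 3, without overlap. Its log2 fold change was 1.47 ± 0.32 (SE; limma adjusted p = 0.177). Among libraries it was highest in hND6 3 and lowest, within hND6, in hND6 2, at 1.64 and 0.591 FPKM. The 60 V pseudogenes of the kappa and lambda loci had no read in any library. The median share of 50-base stretches found in other genes was 23.1% for 38 genes with at least 10 reads in a library, 26.4% for 15 with fewer and 25.9% for 50 with none.

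Genes for the heavy chains, the partners of light chains in an antibody, were higher in hND6. Of 8 heavy constant genes 5 were tested and 3 passed as higher (Ighg2c, Ighg2b and Igha), beside 0.0433% of all tested genes, and the summed level of the 8 was 121 to 338 FPKM in hND6 and 6.41 to 15.6 in mCherry. Ighg2c, for the IgG2c heavy chain, stood at 66.4, 59.5 and 213 FPKM in hND6 1, 2 and 3, in the same order as Igkv6-32. Igha had that order too, at 18.4, 11.5 and 19.9 FPKM. Ighg2b had the reverse order, at 16.5, 24.9 and 7.01 FPKM, lowest in hND6 3. Ighm, for IgM, held most of the mCherry sum, at 14.2, 6.38 and 5.52 FPKM against 36.6, 23.7 and 96.5 in hND6 (limma adjusted p = 0.187). Of 12 plasma cell genes 9 were tested and 1 passed, Jchain, which links secreted antibody into polymers, at 20.4, 15.0 and 40.9 FPKM in hND6 and at most 0.449 in mCherry. All 9 tested plasma cell genes were higher in hND6, 6 of them without overlap, beside 12.6% of all tested genes. Derl3 and Fkbp11 among them averaged 0.464 and 0.482 FPKM in mCherry, under the filter as Jchain did. The untested Irf4, Pou2af1 and Tnfrsf17 had 273, 141 and 35 reads in hND6 against 88, 19 and 5 in mCherry, without overlap in FPKM. Without mCherry 2 no gene of the table passed. Ighg2c, Ighg2b, Igha and Jchain averaged 0.198, 0.0132, 0.335 and 0.253 FPKM in mCherry, so they entered the test through hND6 and had to differ, and nothing is read from these counts. Xbp1, the secretory transcription factor and the most abundant of the list, stood at 31.3, 35.3 and 39.0 against 29.7, 26.9 and 28.7 FPKM (limma adjusted p = 0.264).

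None of the 4 tested genes of the B cell identity list passed, and its summed level was 9.38 to 10.2 FPKM in hND6 and 5.58, 5.60 and 10.1 FPKM in mCherry 2, 3 and 1. In mCherry 1 that sum was mostly Cd37 (5.99 FPKM) and Cd22 (2.03), whereas Cd79a (0.226 against 0.661 to 0.798 in hND6, not tested), Cd79b and Ms4a1 were below every hND6 library there. Cd79b, a signalling partner of the B cell receptor, stood at 0.796, 0.530 and 1.01 FPKM in hND6 and 0.506, 0.105 and 0.217 in mCherry (adjusted p = 0.324), and the mature B cell genes Ms4a1 and Cr2 stood at no more than 0.190 FPKM in any library.

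Of 12 genes of light chain rearrangement and the surrogate light chain, 4 were tested, 2 higher and 2 lower, and none passed. Rag1, which cuts DNA at V and J segments, and Vpreb2 of the surrogate light chain had no read in any library. Vpreb3, Vpreb1 and Igll1 of the same list did have reads, 18, 7 and 9 in hND6 and 23, 2 and 1 in mCherry. Rag2, the partner of Rag1, had 6 reads in hND6 3 and 3 in mCherry 1. Xrcc4, a general DNA end-joining factor and the most abundant of the list, averaged 26.4 ± 1.62 FPKM in hND6 and 32.4 ± 2.14 in mCherry (SD over 3 libraries), without overlap and with a limma adjusted p of 0.233.

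Erythroid transcripts were higher in hND6 without passing the test. Of 8 erythroid genes 7 were in the table and 6 tested, all 6 higher in hND6 without overlap (beside 12.6% of all tested genes) and none past the threshold, with a summed level of 1365 to 2603 FPKM in hND6 and 180 to 468 in mCherry. Hbb-bs, a beta globin gene and the most abundant, stood at 848, 1608 and 1132 FPKM in hND6 1, 2 and 3 and 288, 109 and 226 in mCherry 1, 2 and 3 (limma adjusted p = 0.143). The order among the hND6 libraries was not that of the light chains: hND6 2 was highest for the erythroid sum (2603 FPKM) and lowest for light chain V reads. Among the mCherry libraries the order was the same for both. Their erythroid sums were 468, 180 and 366 FPKM in mCherry 1, 2 and 3, beside 93, 2 and 5 light chain V reads. The groups overlapped in the T and NK cell list, highest in mCherry 1 at 8.23 FPKM, and none of its 7 tested genes passed. The part of blood, and of the plasma cell list, in the light chain result was not tested.

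**Figure D5:**
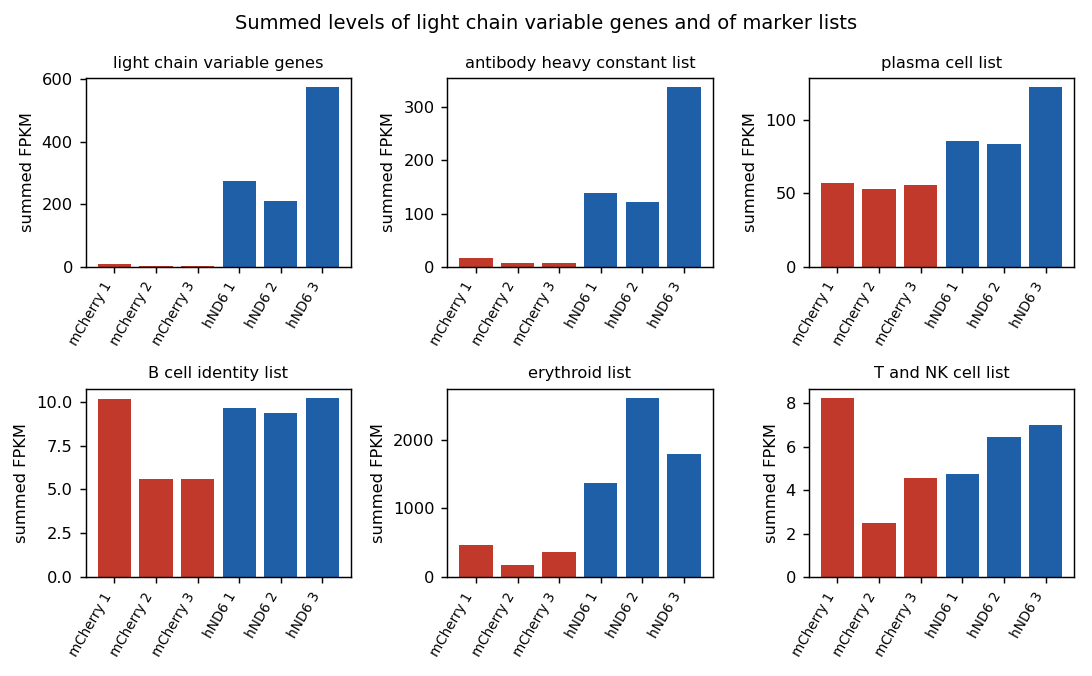
Summed FPKM (vertical axes, each from 0) of the light chain V genes and of 5 marker lists in each mCherry (red) and hND6 (blue) library. The light chain and heavy constant panels are highest in hND6 3; the erythroid panel is highest in hND6 2, and in the B cell panel the mCherry 1 bar, mostly Cd37 and Cd22, reaches the hND6 level.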

How the data were processed

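Ribosome-depleted total RNA of mouse optic nerve was measured in 6 libraries, 3 per group. Per the labels, the deposited values are FPKM, scaled by the authors for exon length and library size; CASAVA 1.4, HTSeq, STAR, Trim Galore and the builds mm10 and GRCm38 are listed, without roles or settings, per the submitters' processing notes. Exon lengths were deposited beside the FPKM and gave whole reads for at least 99.99% of values above 0 (tolerance 0.1 read).

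The members, lists and rules were chosen with earlier results of these data known. Genes averaging 0.5 FPKM or more were tested on log2(FPKM + 0.5) with limma 3.58.1 in R 4.3.3 (moderated two-sided test with intensity trend, Benjamini-Hochberg over all tested genes, threshold 0.05). This step was checked on simulated reads with the same fixed scatter for all genes. The check therefore does not cover members that scattered widely between libraries. Exact 95% intervals and the floor of 3 reads over the group cover counting error only. The rule for names took the tested members, the 3 with most reads in each library, all lambda genes and Igkc, and from the lists the genes past the threshold and the 2 most abundant, of which only some are printed. Igkv6-17, Igkv1-99, Igkv3-1, Igkv2-137, Gm30211, 2010309G21Rik, the Igkj genes, the top heavy V genes, and Igkv12-38, Igkv12-41, Cd22, Cd79a, Cd79b, Ms4a1, Cr2, Rag1, Rag2, Vpreb1, Vpreb2, Vpreb3, Igll1, Derl3, Fkbp11, Irf4, Pou2af1, Tnfrsf17 and Sag were chosen after their values were seen. Sequences came from GENCODE M21, in which all 107 members have a transcript and 103 the deposited position; identity was found with edlib 1.3.9.post1. Alternatives were other pseudocounts, filters, scalings and tests, the replicate block, leaving out each library, and other minimums for detection.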

Additional observations from a re-analysis of the deposited data

How the results depend on the processing

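Over 17 alternatives the 30 tested members gave 478 fold changes, of which 4 turned in direction, all of Igkv4-72: -0.037 with a pseudocount of 1, -0.45 without mCherry 2 or mCherry 3 and -0.49 without hND6 1 (from -0.49 to 0.64 with single libraries left out). A further 13 lost the threshold, all of Igkv6-32 or Iglv1, and 5 gained it, in Igkv14-111, Igkv6-23 and Iglc2. The causes were not tested. The number of genes called was 7; it was 1 with no filter, 0 with voom on recovered reads and 0 with the replicate block (1789 genes at an unadjusted p under 0.05; 2462 with voom), and ran from 0 without mCherry 2 (1947 at an unadjusted p under 0.05) to 131 without mCherry 3 (116 higher, 15 lower). Members called were 2, and 1 with a pseudocount of 0.1, no filter or the TPM scale (which put the median gene at -0.15), 0 with voom or the replicate block, and from 0 to 3 with single libraries left out. Same-numbered libraries did not deviate together in every pair (correlations of -0.42, 0.36 and -0.20 over 16157 genes), so the numbers were not taken as pairs.

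Detection in hND6 1, 2 and 3 was 28, 19 and 32 V genes at 1 read and 14, 6 and 15 at 30 reads. In mCherry 1, 2 and 3 it was 9, 2 and 3 at 1 read and 1, 0 and 0 at 30 reads; at 0.5 RPM it was 1 in mCherry 1. Genes detected in more than 1 library numbered 11 in hND6 and 0 in mCherry at 10 reads, and 22 and 3 at 1 read. Shares of the top gene and of kappa from summed FPKM lay within their counting intervals. Adding the pseudogenes could not change a share, because they had no read. Depth limits the mCherry libraries, whose light chain totals of 93, 2 and 5 reads are too few to describe a repertoire.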
